A study of Mus musculus with 8 samples.

Results

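Genes of the Notch pathway were followed in dental tissue of the maturation (Mat) stage of the mouse incisor after deletion of the transcriptional coactivator Med1. The 10 genes were the receptors Notch1, Notch2 and Notch3, the ligands Jag1, Jag2 and Dll1, the target genes Nrarp, Hey1 and Hes1, and Lfng, which encodes a glycosyltransferase that modifies the receptors. They were chosen by symbol from the 16593 genes named on the array and were read by 11 probes, with 2 probes for Notch2. Of the 10 genes 6 were higher in KO, 2 were lower and 2 were not detected on any array, where 60.9% of all tested genes passed the same test, 24.4% higher and 36.5% lower in KO. The largest difference was that of Nrarp, 2.52-fold higher in KO. Hey1 (1.82-fold), Notch3 (1.67-fold), Notch1 (1.28-fold) and Jag1 (1.19-fold) were also higher, and Dll1 was detected in KO alone. Jag2 was 2.03-fold lower in KO and Hes1 1.39-fold lower.

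The KO mice were Med1 fl/fl with Cre driven by the keratin 14 (Krt14) promoter, and the CON mice were Med1 fl/fl littermates without Cre, all C57BL/6 and 10 wk old. Tissue microdissected from lower incisors of 3 mice was combined, and RNA was hybridized to Illumina MouseRef-8 bead arrays, 4 for KO and 4 for CON. Krt14 is expressed in epithelial cells, so cells of other kinds in the dissected tissue keep Med1 in both groups. Nothing in the labels says that each array had its own pool of mice. The p-values therefore cover only the spread among these arrays, which may be technical.

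Notch receptors are cell surface proteins that are activated by Jagged and Delta-like ligands on a neighbouring cell. Ligand binding leads to cleavage of the receptor, and the released intracellular part enters the nucleus, where it joins the DNA-binding protein Rbpj and Mastermind coactivators and turns on genes such as Hes1, Hey1 and Nrarp. In the enamel organ the pathway is known for its activity in the stratum intermedium, the cell layer beside the ameloblasts, and in skin for its part in the differentiation of suprabasal epidermal cells.

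A level is given here as the log2 of the background-corrected and normalized bead signal, a difference is the KO level minus the CON level, and adjusted p-values come from limma with adjustment over all tested probes. Levels on the arrays are listed in the order of the replicate numbers. Levels of different probes are not set against each other, since probes differ in brightness at the same amount of RNA. Mean array signals were 551 to 812 intensity units in KO and 595 to 697 in CON, and 12565 to 13134 of 25697 probes were detected on KO arrays and 11554 to 12513 on CON arrays. Correlations across tested probes were 0.992 to 0.993 within a group and 0.911 to 0.923 between KO and CON. Med1 itself had levels of 7.67, 7.67, 7.30 and 7.53 on the KO arrays and 8.06, 8.58, 8.12 and 8.42 on the CON arrays. This was a difference of -0.76 ± 0.13 (SE, adjusted p = 0.000746), with all 4 KO arrays below all 4 CON arrays, and its 3 other probes fell short of the detection filter. Where the tested Med1 probe lies relative to the deleted exons is not known here, so it does not check the deletion.

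Promoter sequence was available for 8 of the 10 genes in RefSeq (GRCm38.p6), as 9 windows of 250 bases before a transcription start, with 2 windows for Dll1. Hes1 and Hey1 were not matched. The windows of 4 genes are shown as sequence context for results given below, and no result rests on them: Nrarp had the largest difference, Notch3 the largest among the receptors, Jag2 was the ligand that was lower, and Lfng was undetected and its window held the Rbpj motif. Capitals mark TGGGAA, the core of the sequence bound by Rbpj, on either strand (TTCCCA on the other), and the E-box CACGTG, which reads the same on both strands.
Nrarp (chr2:25180508-25180757, strand plus): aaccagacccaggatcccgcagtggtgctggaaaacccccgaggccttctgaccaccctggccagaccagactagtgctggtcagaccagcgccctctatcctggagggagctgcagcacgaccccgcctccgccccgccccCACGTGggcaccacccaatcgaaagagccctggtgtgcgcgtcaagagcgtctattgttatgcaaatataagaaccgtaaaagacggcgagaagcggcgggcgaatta
Notch3 (chr17:32166891-32167140, strand minus): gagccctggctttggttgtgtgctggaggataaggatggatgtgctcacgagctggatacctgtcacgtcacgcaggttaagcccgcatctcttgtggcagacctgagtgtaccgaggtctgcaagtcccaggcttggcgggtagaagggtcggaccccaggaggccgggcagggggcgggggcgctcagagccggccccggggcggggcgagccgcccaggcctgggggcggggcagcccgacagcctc
Jag2 (chr12:112929496-112929745, strand minus): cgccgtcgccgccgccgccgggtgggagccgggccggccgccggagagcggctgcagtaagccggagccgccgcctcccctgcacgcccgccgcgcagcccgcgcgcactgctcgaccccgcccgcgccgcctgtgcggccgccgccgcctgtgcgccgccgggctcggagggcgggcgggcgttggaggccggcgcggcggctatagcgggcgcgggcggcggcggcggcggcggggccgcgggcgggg
Lfng (chr5:140607091-140607340, strand plus): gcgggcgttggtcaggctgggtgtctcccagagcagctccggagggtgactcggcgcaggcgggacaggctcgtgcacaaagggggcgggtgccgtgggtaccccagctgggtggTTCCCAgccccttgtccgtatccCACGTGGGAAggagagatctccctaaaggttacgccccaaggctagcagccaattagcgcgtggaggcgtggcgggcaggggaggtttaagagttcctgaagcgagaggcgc
TGGGAA or its complement stood in 1 of the 9 member windows, that of Lfng, and in 21.6% of 32851 promoter windows of this length. The Lfng window held it 2 times, once on each strand, and the copy on the gene's own strand belonged to the longer form GTGGGAA, which stood in 5.42% of all windows. CACGTG stood in the windows of Nrarp and Lfng and in 6.02% of all windows, and in Lfng it overlapped the longer form. The GC content of the member windows lay between 56% in the upstream Dll1 window and 87.2% in Jag2, beside a median of 52.4% over all windows. Such matches are letters in a window and not sites of binding.

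Both receptors that could be measured were higher in KO. Notch3, a receptor known from the cells that wrap blood vessels, had levels of 9.36, 9.43, 9.40 and 9.44 on the KO arrays and 8.69, 8.57, 8.74 and 8.67 on the CON arrays. All KO arrays lay above all CON arrays, and the arrays of each group stood close together. The difference was 0.74 ± 0.07 (SE, adjusted p = 7.42e-06), and it stayed past the threshold in all 23 alternatives, between 0.62 and 0.90. Notch1, the receptor known from stratum intermedium and suprabasal epidermis, had levels of 9.29, 9.39, 9.22 and 9.39 on the KO arrays and 8.69, 9.09, 8.97 and 9.12 on the CON arrays. The groups did not overlap, but the highest CON array came close to the lowest KO array, and CON replicate 1 lay lowest. The difference of Notch1 was 0.35 ± 0.10 (SE, adjusted p = 0.0134), or 1.28-fold. With median scaling of the arrays in place of quantile normalization it was 0.24 with an adjusted p of 0.157, so the call of Notch1 depends on the scaling.

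Notch2, a receptor of wide expression, was not detected on any of the 8 arrays by either of its probes. The signals of its first probe (ILMN_2678002) ran from 123.8 to 140.4 in KO and from 119.6 to 147.6 in CON, with detection p-values of 0.0175 to 0.256 in KO and 0.0150 to 0.224 in CON. Those of its second probe (ILMN_2980247) ran from 121.8 to 145.7 in KO and from 126.8 to 140.3 in CON, with detection p-values of 0.0226 to 0.122 in KO and 0.0313 to 0.0702 in CON. No array of either group met the detection threshold of 0.01, so Notch2 has no fold change, and a level below the reach of these probes cannot be told from absence.

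**Figure D1:**
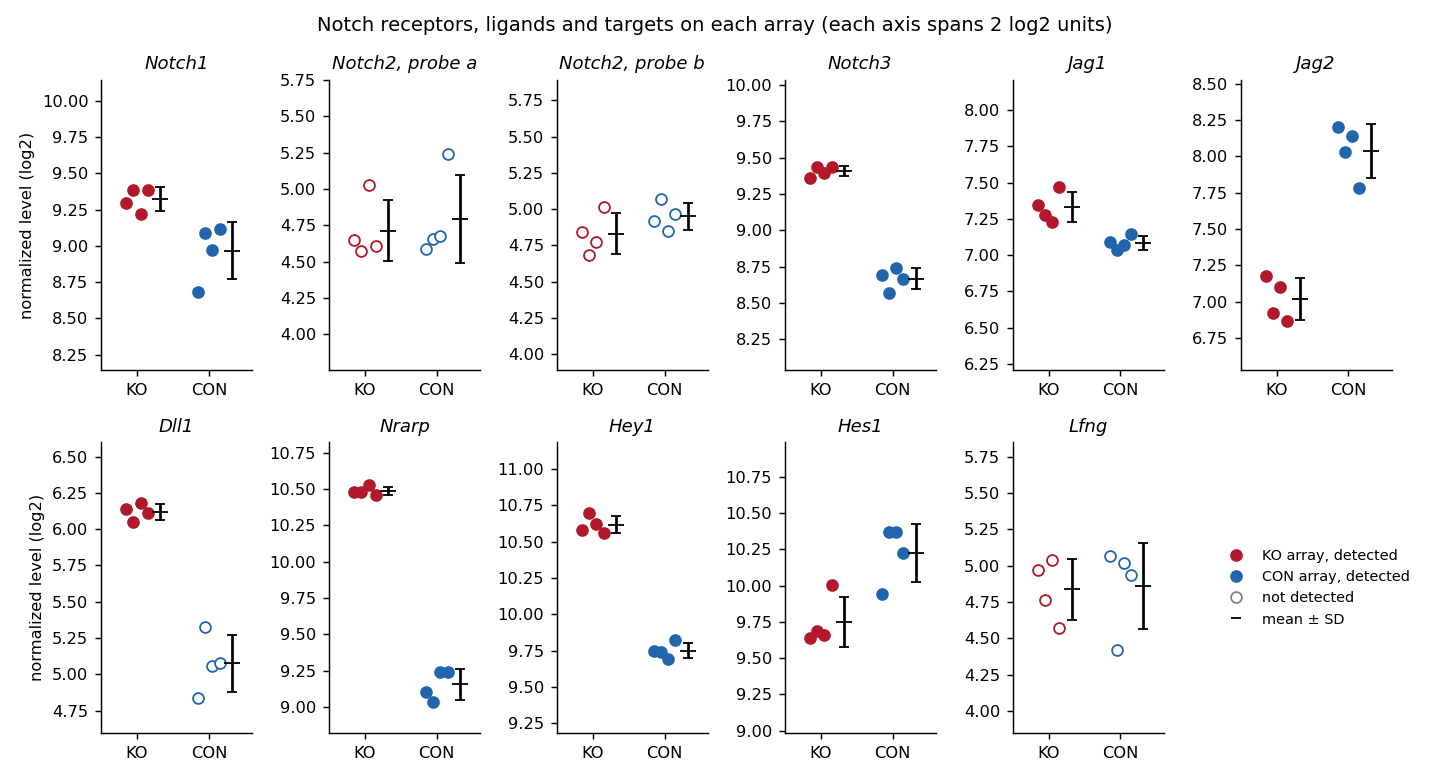
Level (log2) of each of the 11 member probes on every array, with KO left of CON in each panel, the mean ± SD (n = 4) beside the points and open points for arrays on which the probe was not detected. The groups are apart for 7 of the 8 tested members (56.8% of all tested genes), those of Hes1 overlap, and both Notch2 probes (a is ILMN_2678002, b is ILMN_2980247) and Lfng were undetected throughout.

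The ligands went in both directions. Jag2, a Jagged ligand with a known place in oral and dental epithelium, had levels of 7.18, 6.92, 7.10 and 6.87 on the KO arrays and 8.20, 8.03, 8.14 and 7.78 on the CON arrays. Each KO array lay below each CON array. The difference was -1.02 ± 0.11 (SE, adjusted p = 2.62e-05), and it was smaller, at -0.65, in the deposited normalized values and without background correction, still past the threshold.

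Dll1, a Delta-like ligand, was detected on 4 of 4 KO arrays and on none of the 4 CON arrays. Its levels were 6.14, 6.05, 6.18 and 6.11 on the KO arrays and 4.84, 5.33, 5.06 and 5.08 on the CON arrays, the CON values being not well above background. The raw signals behind them were 172.9, 209.5, 161.5 and 172.0 intensity units in KO and 125.3, 137.2, 136.8 and 143.0 in CON. All 4 KO signals lay above all 4 CON signals before any normalization. Dll1 was at least 1.54-fold higher in KO, where the CON mean takes on each array the higher of the probe's own level and the lowest level among detected probes. Dll1 met the detection filter through the KO arrays alone, where it was high. The adjusted p from limma was 1.12e-05, which is therefore not separate support for the rise. On CON replicate 2 the probe missed the detection threshold of 0.01 narrowly, at 0.01003. The size of this difference rests on the background correction: 1.04 as fitted was 0.61 with an offset of 50 and 0.33 without correction. The bound therefore holds only for the background correction used here.

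Jag1, the ligand that shares the Jagged structure with Jag2, had levels of 7.35, 7.27, 7.23 and 7.47 on the KO arrays and 7.09, 7.03, 7.07 and 7.14 on the CON arrays. The groups did not overlap, yet they stood close, and the difference of 0.25 ± 0.07 (SE, adjusted p = 0.0166) was the smallest among the tested members. It missed the threshold with median scaling (0.25, adjusted p = 0.0534) and with a trended, robust variance (0.25, adjusted p = 0.0556). It was 0.49 with cyclic loess and 0.14 without background correction, both past the threshold.

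Of the 3 target genes 2 were higher in KO and the third lower. Nrarp, a small ankyrin repeat protein that is switched on by Notch and dampens its signal, had levels of 10.48, 10.48, 10.52 and 10.46 on the KO arrays and 9.10, 9.03, 9.24 and 9.24 on the CON arrays. The KO arrays were nearly alike and lay more than 1 log2 unit above every CON array. The difference was 1.33 ± 0.07 (SE, adjusted p = 1.68e-07), between 1.19 and 1.47 over the 23 alternatives. Hey1, a basic helix-loop-helix repressor known from vessels and mesenchyme, had levels of 10.58, 10.70, 10.62 and 10.56 on the KO arrays and 9.74, 9.74, 9.69 and 9.82 on the CON arrays. Here too the groups were apart on all arrays. The difference of Hey1 was 0.87 ± 0.07 (SE, adjusted p = 2.32e-06), and it was past the threshold in all 23 alternatives.

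Hes1, the basic helix-loop-helix repressor that is widely used as a readout of Notch activity, had levels of 9.64, 9.69, 9.66 and 10.00 on the KO arrays and 9.94, 10.37, 10.37 and 10.22 on the CON arrays. This was the only tested member whose groups overlapped, with KO replicate 4 above CON replicate 1. The other 3 KO arrays lay below all CON arrays. The difference was -0.48 ± 0.12 (SE, adjusted p = 0.00643). Without KO replicate 4 it was -0.56 (adjusted p = 0.00277) and without CON replicate 1 it was -0.57 (adjusted p = 0.00185), so the call does not rest on either array. Hes1 did not meet the threshold of the methods, which asks for a fold over 1.5 beside p under 0.005, and neither did Notch1 or Jag1.

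Lfng, the Fringe enzyme that adds a sugar to the receptors and so changes which ligand they answer to, was not detected on any array. Its signals ran from 122.8 to 149.2 intensity units in KO and from 115.5 to 139.6 in CON, with detection p-values of 0.0175 to 0.224 in KO and 0.0288 to 0.580 in CON. The groups covered the same range, and no fold change is given.

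**Figure D2:**
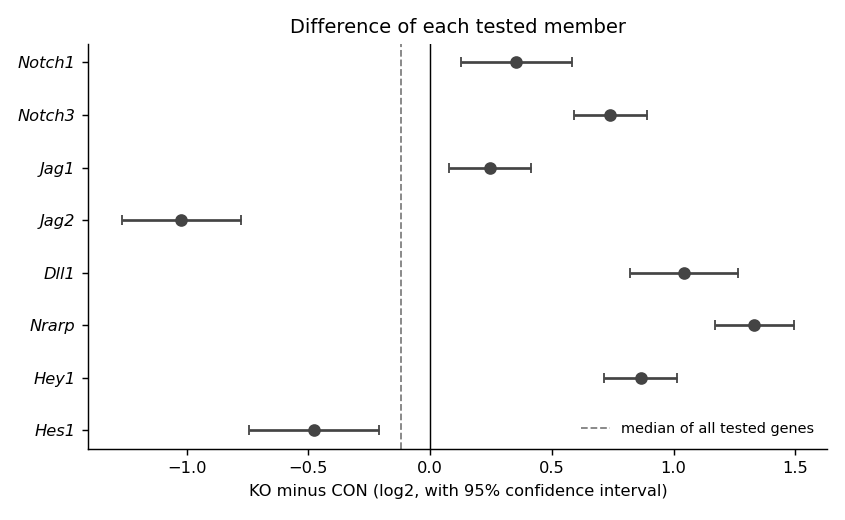
KO minus CON difference (log2) of the 8 tested members with 95% confidence intervals, and the median of all tested genes as a dashed line at -0.12. No interval reaches 0, and the intervals of Jag2 and Hes1 lie below the dashed line while the other 6 lie above it.

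Each of the 8 tested members passed at 5%, of which 6 were higher and 2 lower in KO, with a median difference of 0.55. Dll1 is among the 6 and entered the test through its detection in KO alone. These counts stand beside a large overall response: of 9085 tested genes 60.9% passed, 24.4% higher and 36.5% lower in KO, and the median difference was -0.12. The groups did not overlap for 7 of the 8 tested members, beside 56.8% of the tested genes. Scaling moves the median of the tested genes, which median scaling put at -0.21 and cyclic loess at 0.03, and the direction of all 8 members was the same under both. Cyclic loess called 2831 genes higher and 2019 lower, in place of 2215 and 3317. Among the members, median scaling left 4 higher and 2 lower, the calls of Notch1 and Jag1 being lost, and cyclic loess left 6 and 2.

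**Figure D3:**
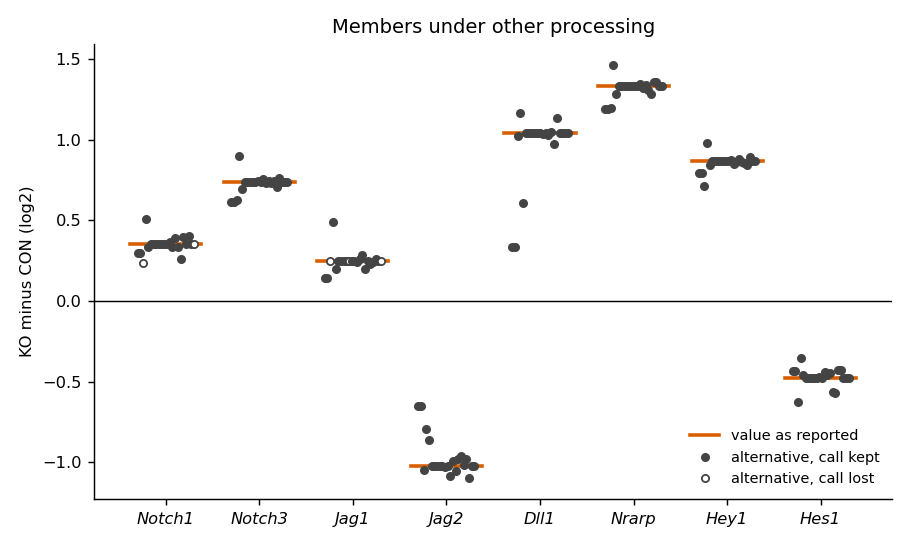
KO minus CON difference (log2) of each tested member as reported (orange line) and under each alternative of the processing except the methods' t-test at its own threshold (points, open where the call was lost). Every point keeps its side of 0, the difference of Dll1 shrinks to 0.33 without background correction, and open points are seen for Notch1 and Jag1.

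Other genes of the pathway were described from a list of 61 genes, of which 52 are on the array and 36 were tested. Of these 6 were higher in KO, 16 lower and 14 not past the threshold, with a median difference of -0.22 beside -0.12 over all tested genes. These are 16.7% higher and 44.4% lower, beside 24.4% and 36.5% of all tested genes, and the counts by role below are small and stand beside the same shares. With cyclic loess 7 were higher and 10 lower, where that scaling called 2831 of 9085 tested genes higher and 2019 lower. Another 13 were not detected on any array. They include Rbpj, the DNA-binding partner of the receptors, for which 3 probes were undetected and which is named after its values were seen.

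Of the receptors and ligands outside the 10 genes 3 were tested, and 1 of them passed. Notch4, a receptor of endothelial cells, was 1.26-fold higher in KO (0.33 ± 0.07 SE, adjusted p = 0.00332), a call that median scaling ended (0.18, adjusted p = 0.173). The differences of Dner, a Delta-like protein of neurons, and of Dll4, the Delta-like ligand of sprouting vessels, were 0.29 ± 0.14 and -0.25 ± 0.20 (SE, adjusted p = 0.101 and 0.292). Dll4 was detected on 2 of 4 KO arrays and 2 of 4 CON arrays, so it lay at the edge of detection in both groups.

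Among 5 tested genes of receptor maturation 1 was higher and 3 were lower. The Fringe enzymes moved apart: Mfng was 1.49-fold higher in KO (0.57 ± 0.10 SE, adjusted p = 0.000737) and Rfng 1.52-fold lower (-0.60 ± 0.11 SE, adjusted p = 0.0011), beside Lfng, which was undetected. Furin, the protease that trims the receptors on their way to the surface, was 1.29-fold lower (-0.37 ± 0.07 SE, adjusted p = 0.00144). Of 6 tested genes of cleavage 1 was higher and 1 lower. Adam17, a protease that cuts receptors outside the membrane, was 1.72-fold higher (0.79 ± 0.07 SE, adjusted p = 1.04e-05). The gamma-secretase subunit Aph1b was lower by a narrow margin (-0.38 ± 0.15 SE, adjusted p = 0.0484), and this call was lost in 13 of 23 alternatives. The difference of its relative Aph1a was -0.08 ± 0.08 (SE, adjusted p = 0.365).

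Of 4 tested genes of the nuclear complex none was higher and 3 were lower, where 36.5% of all tested genes were lower. These 3 were the acetyltransferase genes Kat2b (1.99-fold lower, -0.99 ± 0.11 SE, adjusted p = 2.69e-05), Kat2a (1.38-fold lower, adjusted p = 0.00157) and Ep300 (1.32-fold lower, adjusted p = 0.00248), whose products are coactivators of many other factors besides Notch. In Kat2b a further tested probe was also lower (-0.77). Among 6 tested corepressors 1 was higher and 3 lower, and relatives of the Groucho family took opposite directions. Tle4 was 2.14-fold higher (1.10 ± 0.07 SE, adjusted p = 8.61e-07), and Tle3 was lower (-0.999 ± 0.21 SE, adjusted p = 0.00208) at all 3 of its probes. The deacetylase gene Hdac1 was 1.16-fold lower (-0.22 ± 0.08 SE, adjusted p = 0.0287), a call lost in 8 of 23 alternatives.

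Endocytosis and turnover held the largest rise among the 36 tested genes of the list. Of 9 tested genes 2 were higher and 4 lower. Neurl1a, a ubiquitin ligase of the Neuralized family that acts on ligands, was 2.33-fold higher in KO (1.22 ± 0.10 SE, adjusted p = 4.47e-06), and Dtx4, a ligase of the Deltex family, 2.05-fold higher (1.04 ± 0.11 SE, adjusted p = 3.24e-05). Numb, which holds Notch back in the cells that inherit it, was 1.87-fold lower (-0.90 ± 0.10 SE, adjusted p = 3.06e-05), and all 4 of its probes were lower. Of the 9 other Hes and Hey factors on the array 5 were not detected and 3 were tested, and none was higher. Hes6, a factor that counteracts Hes1, was 2.03-fold lower (-1.02 ± 0.15 SE, adjusted p = 0.000212). Hey2, the close relative of Hey1, was 1.61-fold lower (-0.68 ± 0.16 SE, adjusted p = 0.00458), whereas Hey1 was higher. The difference of Bhlhe40 was -0.14 ± 0.08 (SE, adjusted p = 0.152).

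**Figure D4:**
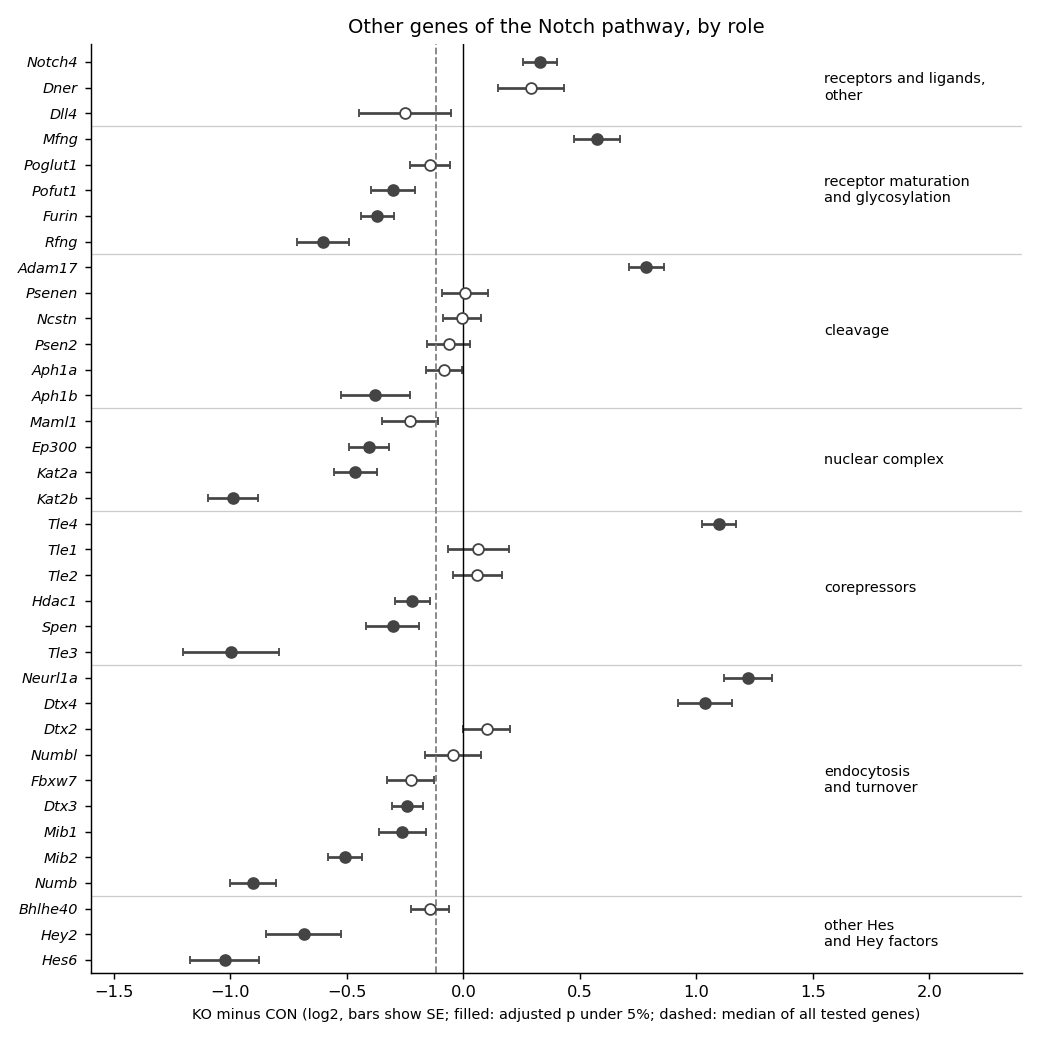
KO minus CON difference (log2, bars show SE) of the 36 tested genes of the wider pathway, grouped by role, with filled points for adjusted p under 5% and the median of all tested genes as a dashed line. Filled points lie on both sides of 0 in receptor maturation, cleavage, corepressors and endocytosis, and only below 0 in the nuclear complex and among the other Hes and Hey factors.

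Genes that the study names beside Notch were also read. The study reports Dlk1, Ctgf (Ccn2) and Cyr61 (Ccn1) as lower in KO in the cervical loop, the stem cell niche of the incisor. It also reports less Notch1 protein there. The tissue here is of the Mat stage, so the values below are from another site. Ccn2, a matrix protein of the CCN family, was 1.56-fold higher in KO (0.65 ± 0.08 SE, adjusted p = 4.97e-05). The brightest probe of its relative Ccn1 did not pass (0.05 ± 0.13 SE, adjusted p = 0.761), and its other probes went opposite ways, 0.37 and -0.45, both past the threshold, so Ccn1 has no settled direction. Dlk1, a Delta-like protein that lacks the receptor-binding domain of the classical ligands, was not detected on any array.

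The dissected tissue holds several cell types, and in bulk RNA fewer cells of a type and less RNA per cell cannot be told apart. Marker lists of 11 cell types were read as the summed linear level of their tested genes. Their counts of higher and lower genes stand beside 24.4% higher and 36.5% lower among all tested genes. Those of suprabasal epidermis, where Notch1 is known to act, were higher at 5 of 5 tested genes, with sums of 52846 to 53776 in KO and 2740 to 3719 in CON, while Ivl and Krt77 were undetected. Of the 5, Krt1 was detected in KO alone and met the filter through those arrays. Those of stratum intermedium and papillary layer were lower at 5 of 5, with sums of 10417 to 12962 in KO and 33925 to 35867 in CON. The study lists all 5 as lower in KO at this stage at a younger age. It also lists Krt1, Krt10, Lor and Krtdap as higher there, so these directions were known beforehand. The stratum intermedium and papillary layer markers are read beside Notch1, which was higher, and Jag2 and Hes1, which were lower. Pericyte and smooth muscle markers, read beside Notch3 and Hey1, were higher at 3 and lower at 2 of 9, with sums of 12368 to 12815 in KO and 7771 to 8785 in CON. Most of that gap was Acta2 (9227 to 9572 in KO and 5476 to 6292 in CON) and Des (959 to 1113 in KO and 238 to 272 in CON), a gene that skeletal muscle also expresses. The other 7 markers summed to 2006 to 2258 in KO and 1962 to 2230 in CON, a split chosen after the values were seen, so that without Acta2 and Des the sums of the groups overlapped. These 7 were not all unchanged. Cspg4 (2.01-fold) and Kcnj8 (1.33-fold) were lower and Pdgfrb (1.42-fold) was higher, each with the groups apart, and the rest did not pass. Endothelial markers, read beside Notch4, Dll4 and Hey1, were higher at 3 of 7 with Kdr undetected, and their sums were 6764 to 7668 in KO and 5087 to 5737 in CON. Those 3 were Emcn (1.75-fold), Pecam1 and Tek, while Esam, Cdh5, Eng and Tie1 did not pass and their groups overlapped. Macrophage markers were higher at 5 of 5, with sums of 21700 to 24026 in KO and 1776 to 1951 in CON, and skeletal muscle markers at 6 of 6, with 20590 to 22822 in KO and 5366 to 6207 in CON. Of the 6, Myh4 was detected on 4 of 4 KO arrays and 1 of 4 CON arrays, so the KO arrays alone met its filter. Lymphocyte markers were higher at 2 of 2 (124 to 143 in KO and 18.1 to 31.7 in CON, Cd2 and Ms4a1 undetected, Cd79a too dim to test). These 2, Cd3e and Cd3g, were detected on 4 of 4 KO arrays and 0 of 4 CON arrays. They met the detection filter through KO alone, so this count was set by the filter. Odontoblast and bone markers were higher at 3 of 3 (14133 to 15402 in KO and 8401 to 8631 in CON, Dspp and Dmp1 undetected). Of the 3, Phex was detected on 4 of 4 KO arrays and 2 of 4 CON arrays. Fibroblast markers were higher at 3 of 6 (43452 to 51267 in KO and 35862 to 37302 in CON) and ameloblast markers at 3 of 5 (45911 to 50976 in KO and 38011 to 40631 in CON). The 3 ameloblast markers were Klk4 (1.57-fold), Enam and Ambn. The study lists Klk4 as lower in KO at this stage at the younger age, the opposite direction. It lists Mmp20 as lower there too, which did not pass here (0.09, adjusted p = 0.406). Amelx did not pass either (-0.25, adjusted p = 0.0932), though all its KO arrays lay below all CON arrays. Basal epithelial markers were lower at 3 of 5 (72188 to 74775 in KO and 82210 to 85646 in CON). The part of these shifts in the differences of the Notch genes was not tested.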

How the data were processed

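Mat-stage dental tissue of 4 KO and 4 CON samples was profiled on Illumina MouseRef-8 arrays, 1 array a sample, with groups taken from the labels. The deposited table holds for each of 25697 probes the mean bead intensity on a linear scale, summarised by the authors in GenomeStudio without normalization between arrays, and beside it the deposited detection p-value, a comparison of the probe with negative control beads. The authors also deposited intensity values normalized in GenomeStudio. The version of GenomeStudio is not given in sources used here.

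Background correction, quantile normalization and log2 followed neqc of limma 3.58.1 in R 4.3.3 with an offset of 16 and negative controls inferred from the detection p-values. Probes detected (p under 0.01) on at least 4 of 8 arrays, 12838 in all, were tested two-sided with lmFit and eBayes (limma) and no covariate. The Benjamini-Hochberg adjustment ran over these probes, with a threshold of 5%. A gene was stood for by its brightest tested probe. Symbols came from the platform annotation, updated through gene identifiers. Of the probes 23978 had a symbol and 1719 are unnamed here. All members were named with every probe, Med1 and the genes Dlk1, Ccn1 and Ccn2 of the study, and in each pathway role up to 3 tested genes by the size of the moderated statistic. Pathway genes outside this rule are marked, and cell type markers were named outside it without a mark. The members and lists were chosen with earlier results of these data known. Arrays carry no counts, so the number of arrays and the signal above background set the precision. The fit was tested on simulated data with known changes, up and down, in a small share of the probes. The response here was far broader, so that test does not bear on the choice of scaling. Alternatives covered the normalized table, background correction, scaling, offset, filters, variance model, replicate block, each array left out, the methods' t-test, a threshold of 1%, and averaging the probes of a gene. Tables and figures were made with Python 3.11, pandas 2.3.3 and matplotlib 3.10.9.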

Additional observations from a re-analysis of the deposited data

Results flagged for a closer look

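In groups of 4 arrays, a single array was marked where its gap to the nearest other array took up more of the range of the group than Dixon's 95% critical value for 4 samples. Chance marks about 1 in 20 groups. Hes1 stood at 10.00 on KO replicate 4, above the other 3 KO arrays, which lay between 9.64 and 9.69. The first Notch2 probe, which was not detected on any array, stood at 5.03 on KO replicate 3 and at 5.24 on CON replicate 4, apart from the other arrays of each group.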

How the results depend on the processing

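Of the 8 tested members, Notch3, Jag2, Nrarp and Hey1 kept their direction and their side of the threshold in every alternative, and no member turned its direction. Dll1 did so wherever it was tested. It met the filter of the main fit through the KO arrays alone, so its calls are not separate support for the rise. Dll1 was not tested when detection on all 8 arrays was asked for, and 5 members were then higher and 2 lower. The replicate numbers of the labels showed no pairing of the samples. After the group mean of each probe was subtracted, the remaining deviations of same-numbered KO and CON arrays had correlations of -0.011 to 0.019. With the replicate block 6 members were higher and 2 lower, as without it, 6 and 14 of the other pathway genes, and 7390 probes passed in place of 7665. With the methods' t-test, p under 0.005 and a fold over 1.5, members were 4 higher and 1 lower, other pathway genes 4 lower in place of 16, and 3268 probes passed. Other pathway genes lower in KO numbered 10 with cyclic loess and 10 at a threshold of 1%. Leaving out 1 array in turn left 6 members higher and 2 lower each time, 11 to 16 other pathway genes lower, and 7057 to 7377 probes past the threshold. Differences that missed the threshold turned sign for Aph1a with cyclic loess (0.14) and for Ccn1 with median scaling (-0.0042) and without single arrays (-0.037 to 0.15, below 0 without KO replicate 2 or CON replicate 1). Signal above background limits what can be said of Notch2, Lfng, Rbpj and of the CON level of Dll1.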
